A study of Mus musculus with 6 samples.

Results

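Transcripts of Trp53, the mouse gene for the tumour suppressor p53, and of 9 well-known p53 target genes were compared in c-Kit+ bone marrow cells that carry the genotype label WT or Runx1 KO. The 10 genes were chosen by name, without use of their values, from 20097 genes listed in the deposited tables. All 10 passed the filter on low values, which left 15410 genes for testing. Mdm2 belongs to the feedback on p53, Cdkn1a and Ccng1 to the control of the cell cycle, Bax, Bbc3, Pmaip1, Phlda3 and Trp53inp1 to cell death, and Sesn2 to metabolism. Kit is a receptor on blood stem and progenitor cells and on mast cells, so c-Kit+ marrow is a mixture of early blood cells of several lineages. There were 3 WT and 3 Runx1 KO libraries of poly-A RNA, and Runx1 encodes a transcription factor needed for the formation of blood stem cells. The sources used here name no treatment, strain, age, sex or Cre driver, and do not describe the Runx1 allele. Neither do the labels say whether the 3 libraries of a group came from separate animals, so the p-values below measure the spread between these samples, which may be technical. In bulk RNA of this kind, fewer cells of a type and less RNA per cell cannot be told apart.

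p53 is a transcription factor held at a low level by the ubiquitin ligase Mdm2, which is itself a p53 target. DNA damage and other stresses activate kinases such as Atm, Atr and Chek2, which release p53 from Mdm2, so that p53 accumulates mainly through protein stability rather than through its transcript. It binds paired decamer sites and raises genes that stop the cell cycle, trigger apoptosis, repair DNA and adjust metabolism. In blood stem and progenitor cells, p53 is known for limiting the survival of damaged cells and for keeping stem cells quiescent.

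The promoters of 3 of the genes show what such sites look like beside transcripts that varied in different ways. Each stretch was read from the RefSeq windows for GRCm38.p6, which run from 250 bases before to 50 bases after a transcription start. Capitals mark matches to the p53 decamer consensus, and a paired site is in capitals throughout, any mismatch included. The Cdkn1a stretch (chr17:29090868-29090978, plus strand) lies directly before the upstream of a pair of annotated starts that are 2790 bases apart, and it is shown because the level of Cdkn1a split the Runx1 KO libraries. The Ccng1 stretch (chr11:40755402-40755536, minus strand) is shown because it also holds a paired site while the transcript stayed nearly level. The Mdm2 stretch (chr10:117710875-117711004, minus strand) belongs to the sole gene of the 10 whose groups did not overlap.
Cdkn1a: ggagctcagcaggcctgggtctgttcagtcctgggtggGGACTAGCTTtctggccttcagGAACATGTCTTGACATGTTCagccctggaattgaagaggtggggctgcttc
Ccng1: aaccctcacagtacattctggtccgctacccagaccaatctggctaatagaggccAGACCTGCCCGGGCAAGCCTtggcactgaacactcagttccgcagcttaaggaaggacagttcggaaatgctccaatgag
Mdm2: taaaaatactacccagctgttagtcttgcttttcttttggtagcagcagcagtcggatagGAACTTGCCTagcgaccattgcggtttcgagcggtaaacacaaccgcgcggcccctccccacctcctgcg
In Cdkn1a the second run of capitals is a paired site of 20 bases, from 51 to 32 bases before that start (chr17:29090928-29090947), and the first is a separate single decamer. In Ccng1 the capitals are a paired site from 195 to 176 bases before the start, and in Mdm2 a single decamer from 186 to 177 bases before it. The paired sites of Cdkn1a and Ccng1 each have 1 mismatch to the consensus. A paired site was counted where a pair of decamers lay at most 1 base apart with at most 1 mismatch and intact C and G cores, a rule written after the Cdkn1a window had been read. RefSeq windows were found for 8 of the 10 genes, 11 windows in all. Of these, 5 held a single decamer without mismatch (Bax, Mdm2, Ccng1, Trp53 and Cdkn1a), against 8.36% of all 32817 windows of 300 bases. A paired site was found in 2 of the 11 windows, against 0.11% of all windows. The RUNX motif TGTGGT, searched on both strands, was found in 1 of the 11 windows, that of Ccng1, against 16.76% of all windows. Such matches are a description of letters and not of binding, and the p53 site for which Mdm2 is best known lies in its first intron, outside this window.

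The libraries held from 23297526 to 26793380 recovered reads, the whole reads behind the deposited values, and all levels below are normalised read counts, meaning reads scaled by a factor per library. Runx1 itself, the check of the label, was not lower but higher in the libraries labelled Runx1 KO: 3031, 2799 and 3497 in WT replicates 1 to 3 and 6648, 6720 and 5830 in Runx1 KO replicates 1 to 3 (log2 change 1.04, SE 0.10, limma adjusted p = 0.00163). Values per gene do not show whether an exon was missing, so every direction below belongs to the libraries by their labels. Kit was present in all 6 libraries, at 7979 to 13685, and no gene of the 8 marker lists of blood cell types was at 0 in a library. The lists differed between the labels: 7 of 10 stem and progenitor markers were called higher in Runx1 KO, and 5 of 8 B-lymphoid, 7 of 9 neutrophil granule, 6 of 7 mast-cell and basophil, 4 of 7 monocyte and macrophage and 3 of 8 erythroid markers were called lower. Of the megakaryocyte markers 4 of 7 were called higher, and 0 of 8 T-lymphoid markers were called. Runx1 KO replicate 1 also stood apart, with a score of 22.82 on the first principal component against 64.51 and 60.78 for the other two libraries of that label and -64.98 to -39.82 for WT.

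None of the 10 genes was called different between the labels, where a call is an adjusted p under 0.05 by limma on log2(value + 1), with Benjamini-Hochberg adjustment over all tested genes. Across all tested genes 21.9% were called, 10.6% higher and 11.3% lower in Runx1 KO. On recovered reads edgeR and DESeq2 also called 0 of the 10, against 21.2% and 25.4% of all genes they tested. At an unadjusted limma p under 0.05 there was 1 of the 10, Mdm2, against 37.7% of all genes. The median log2 change over the 10 genes was -0.23, with 8 below 0 and 2 above, while over all tested genes it was -0.0042. For 8 of the 10 genes the log2 change lay within 0.5 of 0, as it did for 74.2% of all tested genes, and both exceptions, Cdkn1a and Pmaip1, were genes in which Runx1 KO replicate 1 parted from the other Runx1 KO libraries.

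**Figure D1:**
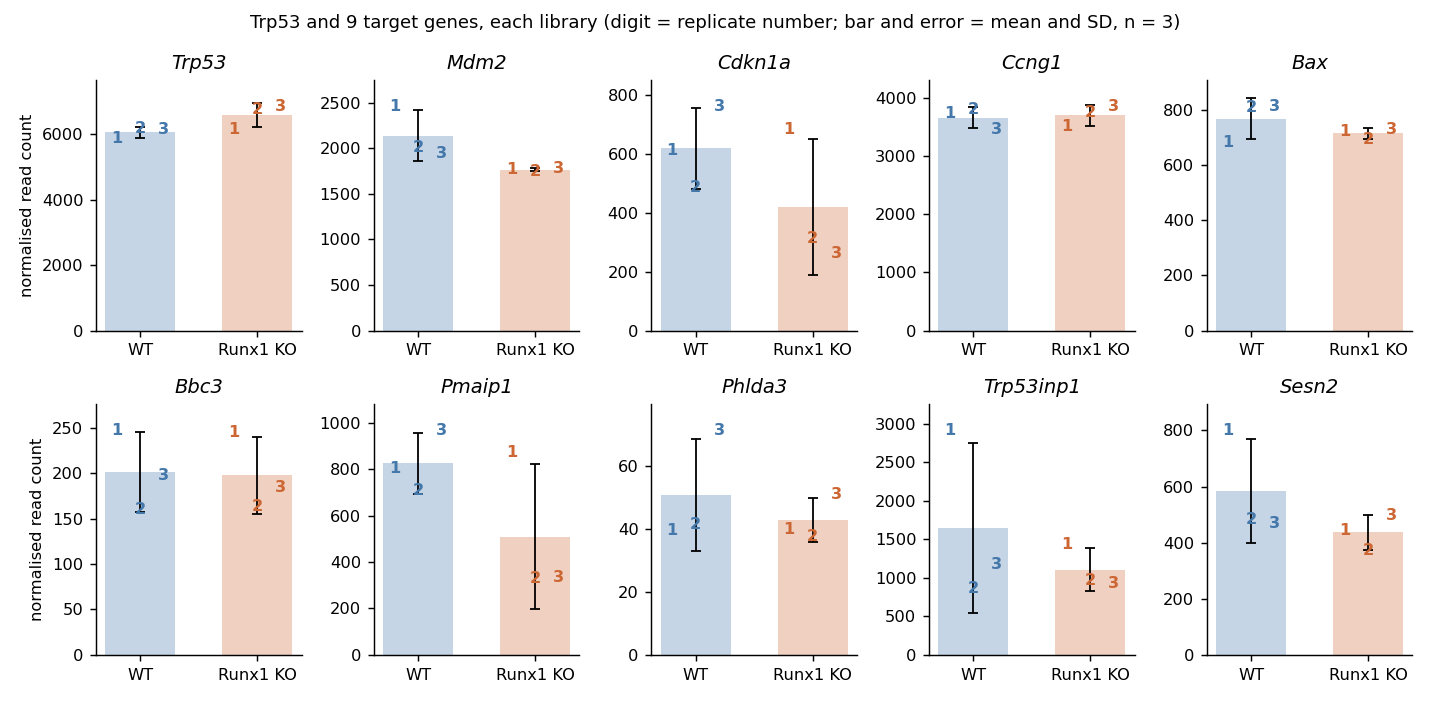
Normalised read count (y axis, from 0) of Trp53 and 9 targets in each library, drawn as the replicate digit for WT and Runx1 KO, with bars and error bars for the mean and SD of 3 libraries. Cdkn1a and Pmaip1 are low in Runx1 KO replicates 2 and 3 but not in replicate 1, while Trp53inp1 and Sesn2 are highest in WT replicate 1.

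Trp53 (ENSMUSG00000059552; GRCm38 chromosome 11, 69580359 to 69591873, plus strand) was abundant and nearly level. Its normalised read counts were 5864, 6171 and 6153 in WT replicates 1 to 3 and 6161, 6766 and 6846 in Runx1 KO replicates 1 to 3. Runx1 KO replicates 2 and 3 lay above every WT library, and Runx1 KO replicate 1 lay within the WT range, so the groups overlapped. The means were 6063 ± 172 and 6591 ± 374 (SD, n = 3 each), a log2 change of 0.12 (SE 0.06, 95% interval -0.03 to 0.26) with a limma adjusted p of 0.2004. With library totals as the scaling the change was 0.20 (limma adjusted p = 0.0652). These values concern the transcript and not the p53 protein.

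Mdm2 (ENSMUSG00000020184; chromosome 10, 117688875 to 117710758, minus strand), which encodes the ligase that marks p53 for degradation, was the sole gene of the 10 whose groups did not overlap. It measured 2456, 2007 and 1942 in WT and 1765, 1748 and 1782 in Runx1 KO. The 3 Runx1 KO values lay close together below the lowest WT value, and WT replicate 1 was the highest. The means were 2135 ± 280.0 and 1765 ± 17.0 (SD, n = 3 each), and the log2 change of -0.27 (SE 0.09, 95% interval -0.49 to -0.04) missed the threshold, with an unadjusted p of 0.0253 and a limma adjusted p of 0.0847. DESeq2 gave an adjusted p of 0.0547 and edgeR 0.0851. Without WT replicate 1 the change of Mdm2 was -0.16 (limma adjusted p = 0.113). Groups without overlap were common in these data, at 43.3% of all tested genes, so 1 of 10 is below that share.

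Cdkn1a (ENSMUSG00000023067; chromosome 17, 29090976 to 29100727, plus strand) encodes p21, the inhibitor of cyclin-dependent kinases through which p53 arrests the cell cycle. It measured 612, 485 and 759.7 in WT and 683, 313 and 262 in Runx1 KO. Runx1 KO replicates 2 and 3 lay below every WT library, whereas Runx1 KO replicate 1 was the second highest of the 6 and 2.18 times the higher of the other two. With all libraries the means were 619 ± 137 and 419 ± 229.9 (SD, n = 3 each), and the log2 change of -0.67 (SE 0.36, 95% interval -1.51 to 0.17) had a limma adjusted p of 0.214. Without Runx1 KO replicate 1, Cdkn1a fell by 1.09 on the log2 scale (SE 0.20, limma adjusted p = 0.0139). Without Runx1 KO replicate 2 or 3 instead, the log2 change was -0.53 (limma adjusted p = 0.450) or -0.40 (limma adjusted p = 0.496). Replicate 1 is singled out because it stood apart, a choice made after the values were seen.

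Ccng1 (ENSMUSG00000020326; chromosome 11, 40748552 to 40755311, minus strand) encodes cyclin G1, which brings a phosphatase to Mdm2. Its values were 3727, 3792 and 3455 in WT and 3499, 3752 and 3849 in Runx1 KO. The groups overlapped almost fully, with Runx1 KO replicate 1 at the low end and replicate 3 at the high end. The log2 change was 0.02 (SE 0.06, limma adjusted p = 0.875), and its 95% interval ran from -0.13 to 0.17, narrower than that of every other gene of the 10 except Trp53. Ccng1 and Cdkn1a, both with a paired p53 site in the promoter stretches printed above, thus differed in how their Runx1 KO libraries spread.

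Among the cell death genes, Pmaip1 varied like Cdkn1a. Pmaip1 (ENSMUSG00000024521; chromosome 18, 66458533 to 66465565, plus strand) encodes Noxa, a BH3-only protein that neutralises Mcl1, a survival protein on which early blood cells depend. It measured 801, 707 and 964 in WT and 869, 328 and 331 in Runx1 KO. Runx1 KO replicates 2 and 3 were nearly equal and below every WT library, while Runx1 KO replicate 1 lay inside the WT range at 2.62 times the higher of the other two. The means were 824 ± 129.9 and 509 ± 312 (SD, n = 3 each), a log2 change of -0.84 (SE 0.37, 95% interval -1.71 to 0.03) with a limma adjusted p of 0.143. Without Runx1 KO replicate 1, Pmaip1 fell by 1.31 on the log2 scale (SE 0.14, limma adjusted p = 0.00314), and with each other library left out in turn its change ran from -0.95 to -0.61 and was not called. In that fit 2 of the 10 genes, Cdkn1a and Pmaip1, were called lower and 0 higher, while 23.0% of all tested genes were called in either direction and 12.5% were called lower.

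A Runx1 KO replicate 1 at least 1.5 times both other Runx1 KO libraries was seen in 2 of the 10 genes and in 6.68% of all tested genes. Among the Runx1 KO libraries, replicate 1 also had the highest marker sums for some cell types but not for others. The summed T-lymphoid markers were 1190 in Runx1 KO replicate 1 against 325 and 364 in replicates 2 and 3, with 1016 to 1339 in WT and 0 of 8 markers called. The B-lymphoid sum was 2991 against 1123 and 1129 (6139 to 24480 in WT, 5 of 8 called lower), and the monocyte and macrophage sum was 27207 against 20188 and 19249 (33471 to 39486 in WT, 4 of 7 called lower). The neutrophil granule sum was 205115 against 162783 and 154487, with 291151 to 351098 in WT and 7 of 9 markers called lower. The megakaryocyte sum was 7433 against 6455 and 4708. The erythroid sum went the other way, at 16037 against 19651 and 27037. Replicate 1 lay between replicates 2 and 3 for the stem and progenitor sum (31773 against 34039 and 29306). The same held for the mast-cell and basophil sum (3068 against 3770 and 2191). The part of these cells in the levels of Cdkn1a and Pmaip1 was not tested.

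In Bax, Bbc3 and Phlda3, Runx1 KO replicate 1 was not 1.5 times both other Runx1 KO libraries. In Bbc3 it was 1.33 times the higher of them. Bax (ENSMUSG00000003873; chromosome 7, 45461697 to 45466898, minus strand), the pore-forming protein of mitochondrial apoptosis, measured 684, 810.3 and 812 in WT and 723, 692 and 731 in Runx1 KO. The Runx1 KO values all lay between the lowest and the middle WT value, and the log2 change was -0.10 (SE 0.09, 95% interval -0.32 to 0.12, limma adjusted p = 0.463). It was -0.18 without WT replicate 1 (limma adjusted p = 0.149), -0.06 without WT replicate 2 or 3, and -0.02 with library totals as the scaling. Bbc3 (ENSMUSG00000002083; chromosome 7, 16308393 to 16318205, plus strand) encodes Puma, the BH3-only protein behind much of p53-dependent death in blood cells. It measured 246, 159 and 198 in WT and 245, 164 and 184 in Runx1 KO. Replicate 1 was the highest in both groups and replicate 2 the lowest, and the means, 201 ± 43.6 and 197 ± 42.3 (SD, n = 3 each), were almost equal, with a log2 change of -0.03 (SE 0.21, limma adjusted p = 0.945). The 95% interval of Bbc3, from -0.53 to 0.48, still allows a change of about 1.4 times in either direction.

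Phlda3 (ENSMUSG00000041801; chromosome 1, 135766119 to 135769136, plus strand), a small protein that blocks the kinase Akt at the membrane, was the weakest of the 10. Its values were 39.6, 41.4 and 71.0 in WT and 39.8, 37.7 and 50.7 in Runx1 KO. Replicate 3 was the highest in both groups, and the log2 change of -0.20 (SE 0.28, 95% interval -0.86 to 0.46) had a limma adjusted p of 0.637. Without WT replicate 3 it was 0.06.

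Trp53inp1 and Sesn2 each had their highest value in WT replicate 1. Trp53inp1 (ENSMUSG00000028211; chromosome 4, 11156431 to 11174379, plus strand), a nuclear and autophagy protein that promotes p53-dependent death, measured 2907, 867 and 1167 in WT and 1429, 962 and 925 in Runx1 KO. WT replicate 1 was 2.03 times the next highest library, and the other 5 libraries lay between 867 and 1429 with both labels mixed. Of those 5, Runx1 KO replicate 1 was the highest, at 1.48 times the higher of Runx1 KO replicates 2 and 3. The log2 change was -0.40 (SE 0.43, 95% interval -1.41 to 0.60, limma adjusted p = 0.526), and without WT replicate 1 it was 0.11 (limma adjusted p = 0.765). It was negative again without replicate 1 of both labels, so the direction depended on which libraries were kept.

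Sesn2 (ENSMUSG00000028893; chromosome 4, 132492032 to 132510501, minus strand) encodes sestrin 2, a leucine-sensing inhibitor of mTORC1. It measured 798, 482 and 470.0 in WT and 444, 372 and 495 in Runx1 KO. WT replicate 1 was 1.61 times the next highest library and the other 5 overlapped. The log2 change of -0.38 (SE 0.22, 95% interval -0.90 to 0.14, limma adjusted p = 0.249) became -0.13 without WT replicate 1 (limma adjusted p = 0.538). A WT replicate 1 at least 1.5 times every other library was seen in 2 of the 10 genes and in 4.17% of all tested genes. In the same library the B-lymphoid marker sum was 24480, against 6139 and 10180 in WT replicates 2 and 3 and 1123 to 2991 in Runx1 KO, and its part in the levels of Trp53inp1 and Sesn2 was not tested.

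**Figure D2:**
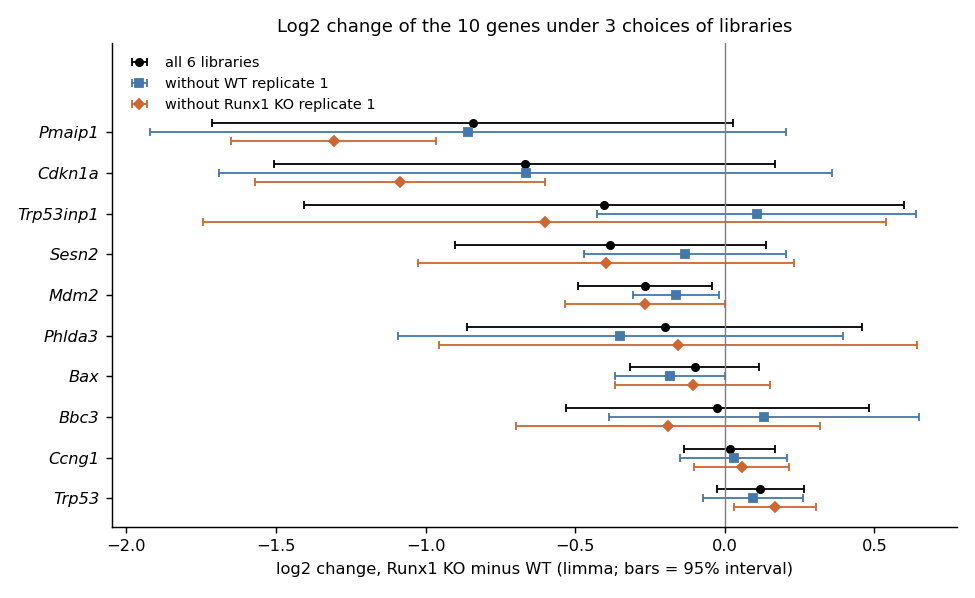
Log2 change (x axis, Runx1 KO minus WT) with 95% interval for each of the 10 genes, with all libraries, without WT replicate 1, and without Runx1 KO replicate 1. Cdkn1a and Pmaip1 move from -0.67 and -0.84 to -1.09 and -1.31 when Runx1 KO replicate 1 is left out, and their intervals then no longer reach 0.

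Leaving out replicate 1 of both labels left 2 libraries a group and gave the same 2 genes as calls. Cdkn1a then fell by 1.08 on the log2 scale (limma adjusted p = 0.0199) and Pmaip1 by 1.32 (limma adjusted p = 0.00372), while Trp53inp1 had a change of -0.09 and Sesn2 of -0.15, both uncalled. In this fit 24.3% of all tested genes were called and 13.2% were called lower.

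A further 35 p53 targets were taken from a list ordered by role. Of these, 3 were called higher and 4 lower in Runx1 KO, 7 of 35 or 20% against the 21.9% of all genes, with a median log2 change of -0.12. By role, 1 of 5 arrest genes, 3 of 13 apoptosis genes, 1 of 6 repair genes, 2 of 7 metabolic genes and 0 of 4 feedback genes were called. For feedback, none of Ppm1d, Rchy1, Cop1 and Ckap2 passed by limma, and Ckap2 had an unadjusted p of 0.0277 with an adjusted p of 0.0898.

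Sesn1, another sestrin, was called higher, and its difference from Sesn2 was not tested. Its values were 1160.4, 1035 and 1211 in WT and 2121, 1880.0 and 1954 in Runx1 KO. Every Runx1 KO library lay far above every WT library, with means of 1135 ± 90.3 and 1985 ± 124 (SD, n = 3 each) and a log2 change of 0.81 (SE 0.08, limma adjusted p = 0.00225). Polk, a DNA polymerase that copies past damaged bases, rose from 328 ± 41.7 to 532 ± 50.6 (SD, n = 3 each), a log2 change of 0.70 (SE 0.13, limma adjusted p = 0.0113, and 0.0526 without Runx1 KO replicate 2). Tnfrsf10b, the death receptor for Trail, rose from 73.7 ± 9.77 to 115 ± 14.5 (log2 change 0.64, SE 0.18, limma adjusted p = 0.0416), a call that DESeq2 did not make (adjusted p = 0.0531). Leaving out any 1 library other than WT replicate 2 also ended the call of Tnfrsf10b (limma adjusted p from 0.0933 to 0.105).

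Perp, a membrane protein of desmosomes that p53 induces during apoptosis, had the largest change of the 35. It measured 197, 120.1 and 103 in WT and 40.8, 23.8 and 27.8 in Runx1 KO. The groups were far apart, with WT replicate 1 again the highest, and Perp fell by 2.13 on the log2 scale (SE 0.31, limma adjusted p = 0.0057). Tigar, a phosphatase that slows glycolysis, fell from 639.9 ± 57.8 to 453 ± 31.6 (log2 change -0.50, SE 0.10, limma adjusted p = 0.0169). The Tigar call was lost without replicate 2 or 3 of either label (limma adjusted p from 0.0518 to 0.0611). Rps27l, a ribosomal protein paralogue that binds Mdm2, fell from 1931 ± 61.5 to 1602 ± 69.0 (log2 change -0.27, SE 0.06, limma adjusted p = 0.0232), a call that was lost with library totals as the scaling (adjusted p = 0.0912) and without replicate 2 or 3 of either label (0.0660 to 0.101). Gtse1, a microtubule protein of G2 cells that restrains p53, fell from 1582 ± 117 to 1233 ± 149.8 (log2 change -0.36, SE 0.11, limma adjusted p = 0.0488). The Gtse1 call was lost with edgeR (adjusted p = 0.0539), with limma-voom, with TMM or library totals as the scaling, with no filter, and with any 1 library left out (limma adjusted p from 0.0599 to 0.136).

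WT replicate 1 was at least 1.5 times every other library in 8 of the 35 genes, against 4.17% of all tested genes. The 8 genes were Btg2, Gadd45a, Plk2, Plk3, Fas, Rrm2b, Ddit4 and Perp. Like Trp53inp1 and Sesn2, these were named after their values were seen. Plk3, a polo-like kinase of the stress response, measured 1324, 288 and 324 in WT and 269.9, 197 and 171 in Runx1 KO, so that WT replicate 1 was 4.08 times the next highest library. Btg2, an antiproliferative protein, measured 7784, 2821 and 2926 in WT and 4369, 2596 and 2124 in Runx1 KO, with replicate 1 the highest of both labels. Its log2 change was -0.47 (limma adjusted p = 0.463) with all libraries and 0.01 without WT replicate 1. Plk2, another polo-like kinase, followed the same order, at 1785, 500.5 and 572 in WT and 809, 344 and 304 in Runx1 KO. Of the 8 genes, limma called Perp alone with all 6 libraries and the group as the sole term, and DESeq2 also called Rrm2b (adjusted p = 0.0241). Without replicate 1 of both labels, Plk2 (log2 change -0.72, limma adjusted p = 0.0117), Plk3 (-0.73, adjusted p = 0.0208) and Rrm2b (-0.42, adjusted p = 0.0463) were also called lower.

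**Figure D3:**
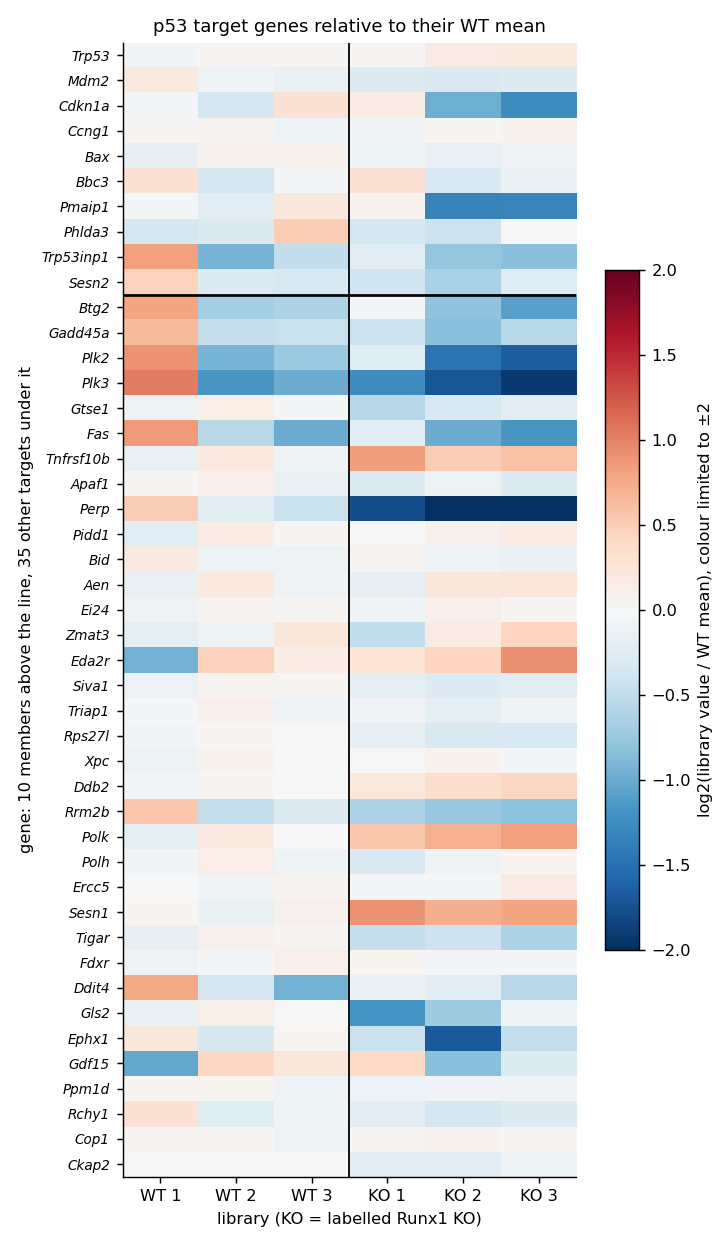
Heat map of log2(library value / WT mean), colour limited to 2 in either direction, for the 10 genes above the line and 35 further p53 targets under it (rows) in the 6 libraries (columns). WT replicate 1 is redder than the other WT libraries for Trp53inp1, Sesn2, Plk3 and Btg2, and Perp is blue in all 3 Runx1 KO libraries.

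The list of genes that act on p53 held 23 names, of which Cdkn2a, Trp63 and Trp73 are not analysed here. Of the 20 tested, 5 were called higher and 0 lower by limma, or 25% against 21.9% of all genes. An unadjusted limma p under 0.05 was found for 9, or 45% against 37.7% of all genes. On recovered reads edgeR called 5 and DESeq2 called 7 of the 20, against 21.2% and 25.4% of all genes they tested. The kinases that signal damage to p53 had the most calls, 3 of 6 higher: Atm, which responds to double-strand breaks, Atr, which responds to stalled replication, and Chek2, the checkpoint kinase downstream of Atm. Atm measured 1830.2, 1780.0 and 1801 in WT and 2039, 2898 and 2746 in Runx1 KO. All Runx1 KO libraries lay above WT, replicate 1 least so, and the log2 change was 0.49 (SE 0.13, limma adjusted p = 0.0366). Leaving out any 1 library other than Runx1 KO replicate 1 ended that call.

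Chek2 rose from 946 ± 87.6 to 1326 ± 114 (log2 change 0.49, SE 0.10, limma adjusted p = 0.0157). Atr rose from 1702 ± 22.9 to 2268 ± 213 (log2 change 0.41, SE 0.08, limma adjusted p = 0.0136), and the calls of Atr and of Chek2 were lost when Runx1 KO replicate 2 or 3 was left out. Mdm4, the Mdm2 relative that masks the activation domain of p53, was called higher, and its difference from Mdm2 was not tested. It measured 4272, 3787 and 4199 in WT and 4822, 5674 and 5786 in Runx1 KO. The groups did not overlap, and the log2 change was 0.41 (SE 0.09, limma adjusted p = 0.0195), lost without WT replicate 2, Runx1 KO replicate 2 or Runx1 KO replicate 3. Ppp1r13b, which encodes ASPP1, a partner that directs p53 to apoptosis genes, rose from 1022 ± 102 to 1493 ± 89.7 (log2 change 0.55, SE 0.09, limma adjusted p = 0.00861), and no library left out ended its call.

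**Figure D4:**
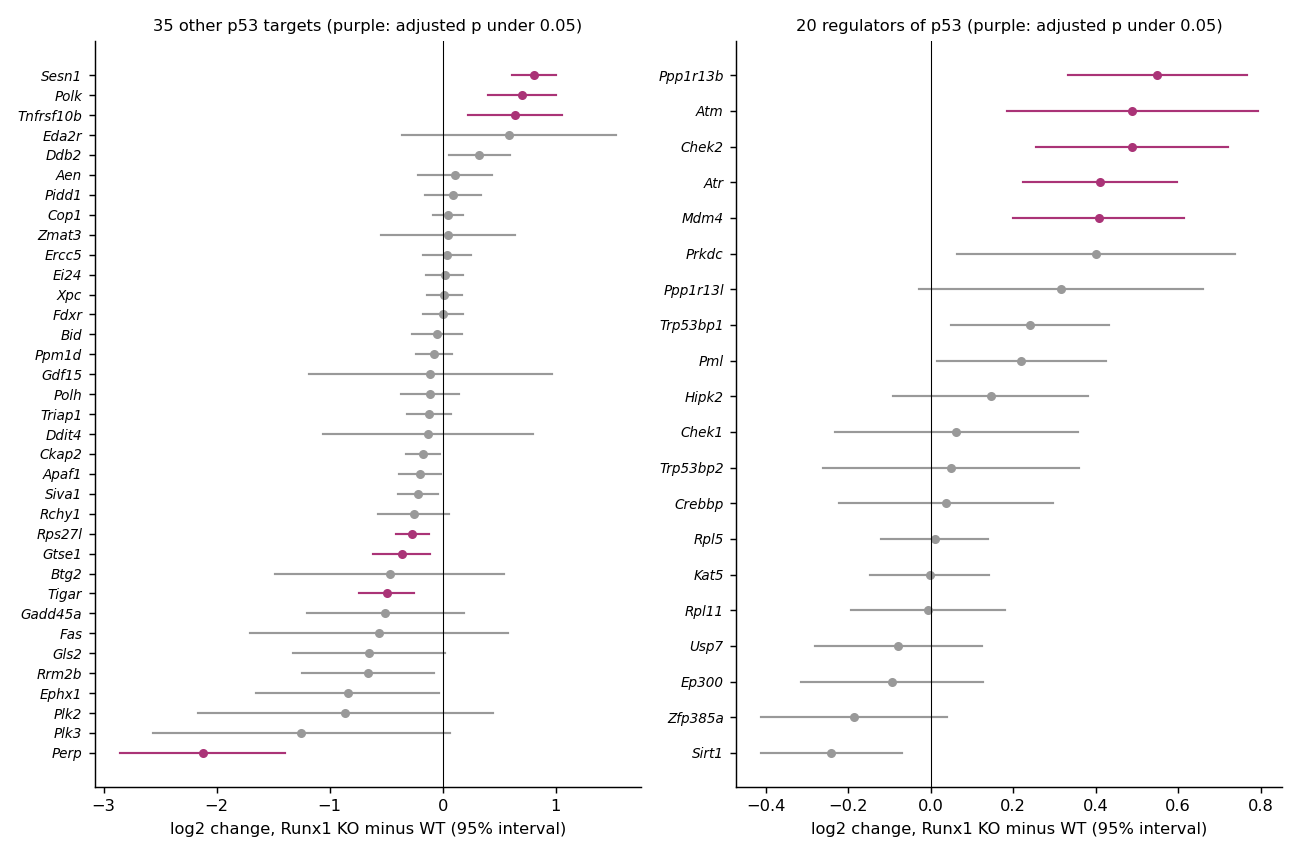
Log2 change (x axis, Runx1 KO minus WT) with 95% interval for 35 further p53 targets and for 20 genes that act on p53, with purple for an adjusted p under 0.05. Among the targets 3 purple points lie right of 0 and 4 left of it, and among the genes that act on p53 all 5 lie right of it.

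Per length, the 10 genes spanned a wide range of transcript levels. In WT, normalised reads per kilobase of exon were 1499 ± 42.6 for Trp53, 1042 ± 50.9 for Ccng1, 488 ± 46.8 for Bax and 420.1 ± 55.1 for Mdm2 (SD, n = 3 each). Lower levels followed in Pmaip1 (302 ± 47.5), Trp53inp1 (254 ± 170.1), Cdkn1a (174 ± 38.6), Sesn2 (168 ± 53.6), Bbc3 (94.7 ± 20.5) and Phlda3 (32.5 ± 11.3). Trp53 was 46.1-fold above Phlda3 on this scale. The WT ranges of neighbours overlapped for Bax and Mdm2, Pmaip1 and Trp53inp1, Trp53inp1 and Cdkn1a, and Cdkn1a and Sesn2, so the order within these pairs is not set beyond the spread of the libraries. In Runx1 KO the order was the same except that Sesn2 (126 ± 17.9) stood above Cdkn1a (118 ± 64.7), a pair whose ranges also overlapped there.

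**Figure D5:**
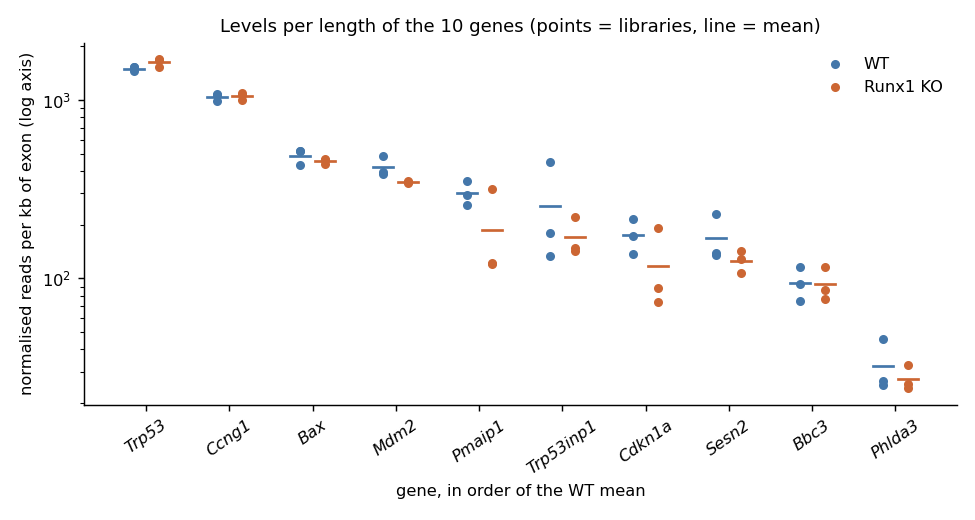
Normalised reads per kilobase of exon (y axis, log scale) of the 10 genes in order of their WT mean, with points for libraries and lines for the group means. Trp53 and Ccng1 stand above the rest in both labels, and the Runx1 KO points of Pmaip1 and Cdkn1a are split, with replicate 1 above the other two.

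The patterns most like those of Trp53 and Cdkn1a over the 6 libraries were taken from the 11199 other tested genes with a mean of at least 100 normalised reads, by Pearson's r of log2 values. For Trp53 these were Gtf3c1 (r = 0.998), Jmjd4 (0.996), Pomgnt2 (0.996), B3galnt2 (0.995) and Mettl4 (0.993). For Cdkn1a they were Gm5436 (r = 0.996), Gga1 (0.989), Nr4a1 (0.988), Ptpro (0.986) and Zc2hc1a (0.986). Pmaip1 ranked 11 for Cdkn1a, with r = 0.980, and Trp53 ran opposite to both, with r = -0.886 to Cdkn1a and -0.917 to Pmaip1. Nr4a1, an immediate early gene, measured 4052, 2360.2 and 6607 in WT and 3607, 1001 and 722 in Runx1 KO, low in the same pair of Runx1 KO libraries. With 6 libraries in 2 groups that share normalisation and cell makeup, these correlations are descriptions, and many genes reach a high r.

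Some of these values could include reads of overlapping genes, since whether counting used the strand is not stated. Among the 10 genes, exons of Cdkn1a overlap AC167363.2 on the opposite strand over 273 bases, and AC167363.2 had a mean of 4.8 normalised reads. Exons of Bax overlap the same-strand Gm45808 over 192 bases, and Gm45808 is not analysed here. The other 8 genes share no exon bases with another annotated gene in GENCODE M21.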

How the data were processed

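Per the submitters' processing notes, HISAT2 and HTSeq 0.9.1 were used with mm10/GRCm38, with no role stated for either tool. The deposited values are a signal per gene and library: in each file 100% of them are whole multiples of a single step (tolerance 0.001), and the reciprocals of the steps equal median-of-ratios size factors of 0.956 to 1.04. They are therefore read counts divided by a size factor, called normalised read counts, and the multiples are called recovered reads. With 3 reads as the floor, the limit is 2.88 to 3.14 normalised reads, which covers counting error only. Genes passing filterByExpr of edgeR 4.0.16 (minimum count 10, minimum total 15) on these values were tested with limma 3.58.1 in R 4.3.3 (lmFit, eBayes with a mean trend) on log2(value + 1), with the group as the sole term, two-sided, with Benjamini-Hochberg adjustment. This scale understates changes of low genes. Symbols were found for 20077 of the identifiers, and their positions and exon lengths are from GENCODE M21 on GRCm38. Only the limma fit was tested on simulated reads, which had the same spread setting for all genes and no library that stood apart. The alternatives, run on all tested genes, were edgeR, DESeq2 1.42.0 and limma-voom on recovered reads, pseudocounts of 0.5 and 5, no filter or a mean of at least 50, library totals or TMM as scaling, a replicate block, and each library left out. Leaving out replicate 1 of both labels was added after the values were seen. The 10 genes, the lists of 35 further targets, of genes that act on p53 and of cell type markers, and the tests were chosen with earlier results of these data known. Named genes are the 10 genes, Runx1, genes of the first 2 lists that were called or not tested, the 5 genes most correlated with Trp53 and with Cdkn1a, and markers at 0. Others are named after their values were seen.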

Additional observations from a re-analysis of the deposited data

How the results depend on the processing

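Of 99 log2 changes of the 10 genes recomputed with all libraries, 98 kept their direction and side of the threshold and 1 changed sign, that of Bbc3, which was 0.057 with library totals as the scaling. With libraries left out, 59 of 70 were the same, 4 passed the threshold (Cdkn1a and Pmaip1) and 7 changed sign: the ranges were -0.19 to 0.13 for Bbc3, -0.024 to 0.070 for Ccng1, -0.35 to 0.064 for Phlda3 and -0.77 to 0.11 for Trp53inp1. Among the further targets Btg2 ranged from -0.77 to 0.0076 and Ddit4 from -0.52 to 0.34, and Ddit4 was 0.25 without replicate 1 of both labels. The count of the 10 genes called lower was 0 with all libraries under every alternative, 0 to 2 with a library left out, and 2 without replicate 1 of both labels, and the count called higher was 0 throughout. Further targets called lower numbered 4, against 2 with library totals, 8 without replicate 1 of both labels and 1 to 4 with a library left out, while those called higher numbered 3, against 1 to 3. Genes that act on p53 called higher numbered 5, against 8 with library totals and 1 to 7 with a library left out, and those called lower 0, against 1 with DESeq2 or with a mean of at least 50 (Sirt1) and 1 without replicate 1 of both labels (Zfp385a). All calls numbered 3370 (1631 higher, 1739 lower), against 1349 to 3551 (627 to 1627 higher, 722 to 1924 lower) with a library left out and 3752 (1720 higher, 2032 lower) without replicate 1 of both labels, and library totals moved the share of higher calls from 48.4% to 63.5% and the median log2 change of all genes from -0.0042 to 0.08. The replicate numbers of the titles were checked as a pairing: deviations from the group means of same-numbered libraries correlated at 0.287, 0.129 and -0.010. The replicate 1 libraries of both labels were each other's best match, and theirs was the highest value of all such pairs. WT replicate 2 correlated best with Runx1 KO replicate 3 (0.235), and WT replicate 3 with Runx1 KO replicate 2 (0.054). The numbers were therefore not taken as pairs. With the replicate block 3843 genes were called, further targets called lower numbered 9, with Btg2, Plk2, Plk3, Rrm2b and Ephx1 added, Tnfrsf10b was not called higher (adjusted p = 0.0716), and the 10 genes had 0 calls. Phlda3 has no value with a mean of at least 50. The cause of these shifts was not tested. With 3 libraries a group, the 95% intervals of Cdkn1a, Pmaip1, Trp53inp1, Phlda3, Sesn2 and Bbc3 each span more than 1 log2 unit. A missed call there does not show an equal level.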
